A study of Mus musculus with 6 samples.

Results

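The genes described here are 7 gap junction and water channel genes of the mouse lens, Gja3, Gje1, Mip, Gja1, Aqp1, Aqp5 and Aqp11, chosen by gene symbol from the 55416 genes of the deposited count table. Whole lenses were profiled by RNA sequencing in 3 samples from mice with a germline knockout of Cd24a (strain label C57BL/6) and 3 from wild-type mice (strain label C57BL/har), with 2 lenses pooled per sample. The sample labels give an age of 8 weeks in both groups, whereas the series text gives 7 weeks. Strain and genotype cannot be told apart, and a germline allele removes Cd24a in every cell of the animal and not in the lens alone.

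The lens has no blood vessels, and its cells depend on one another for ions, metabolites and water. A single layer of epithelial cells covers its anterior face, and the mass of the organ is made of elongated fibre cells that lose their organelles as they mature. Connexins form gap junction channels between neighbouring cells, and aquaporins form membrane pores for water. Gja3 encodes a connexin of the fibre cells that is mutated in inherited cataract, Gje1 a small connexin needed for a normal lens in mice, and Mip the fibre aquaporin, the most abundant membrane protein of the lens, which also serves in cell adhesion. Gja1, the most widely expressed connexin of the body, and Aqp1, a water channel of many fluid-transporting epithelia, mark the lens epithelium. Aqp5 encodes a water channel found in lens epithelium and fibres, and Aqp11 a channel of intracellular membranes. Gja3, Gje1 and Mip are treated below as the fibre genes and Gja1 and Aqp1 as the epithelial genes.

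The libraries held 5384542 to 5966090 gene counts in the knockout group and 6262742 to 7302951 in the wild-type group. Cd24a had 71, 58 and 45 counts in the knockout libraries, against 20656, 18730 and 17514 in the wild-type libraries, so every library followed its label. Replicate 3 of each group showed a female pattern, with 2466 Xist counts in the knockout library and 2191 in the wild-type library, and the other 4 libraries had at most 4 Xist counts. The labelled tissue was borne out by fibre markers that summed to 59604 to 65960 CPM (read counts normalised to library size, with TMM scaling) in knockout and 73594 to 79211 CPM in wild-type libraries, although the fibre gene Lim2 was listed at 0 in every library.

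Both epithelial genes were lower in lenses without Cd24a, while none of the 3 fibre genes passed the test. Gja3 still lay lower in every knockout library than in any wild-type library. The contrast is between these genes and not between the cell classes. Among lens markers, 8 of 13 tested fibre markers and 3 of 8 epithelial markers were called lower. Aqp1 in the knockout was at 36.3% of its wild-type level and Gja1 at 75.3%, whereas Mip was at 93.9%, Gja3 at 90.2% and Gje1 at 102% (ratios of mean CPM, n = 3 each). Aqp5 was at 91.4% and did not pass. Of the 7 genes 6 had enough reads to be tested, and 2 of these were called lower and 0 higher by the edgeR quasi-likelihood test at an adjusted p of at most 0.05. Over all 11474 tested genes 4.48% were called lower, 3.02% higher and 7.5% in either direction. In a whole organ, fewer cells of a type and less RNA per cell cannot be told apart.

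**Figure D1:**
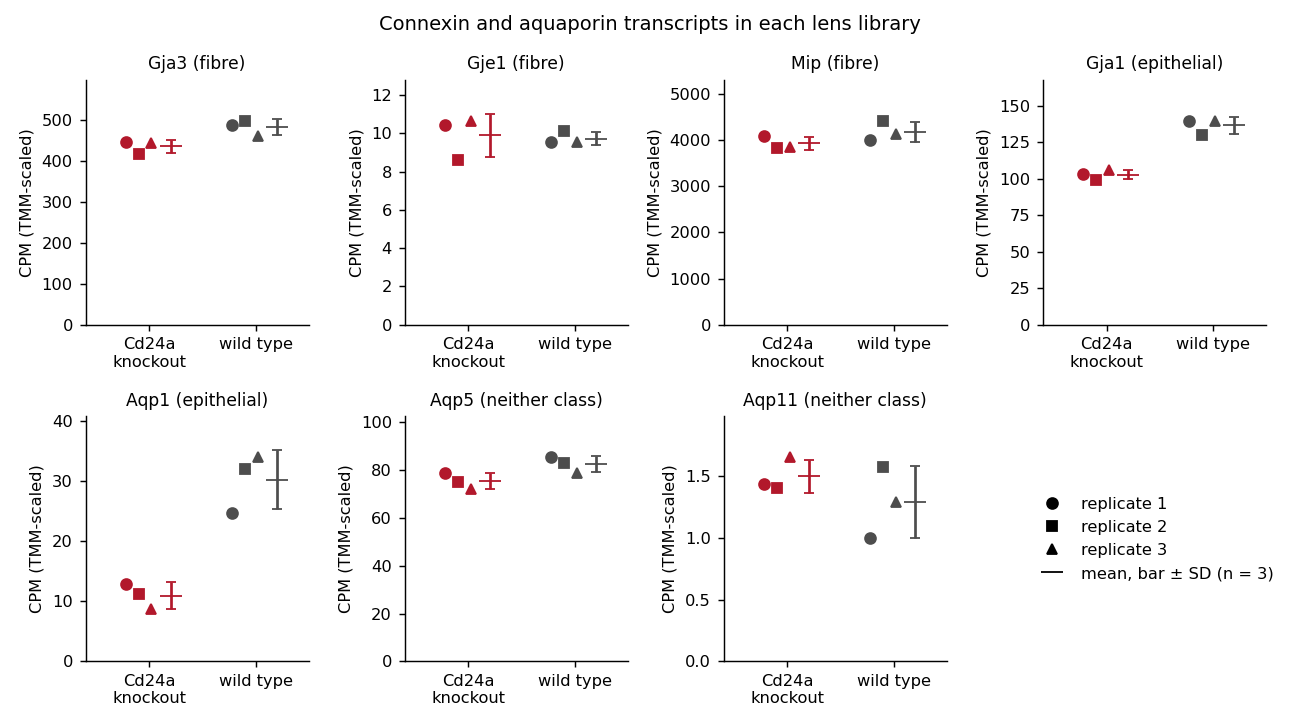
CPM (TMM-scaled) of each gene in the 3 Cd24a knockout libraries (red, left) and the 3 wild-type libraries (grey, right), with the mean and SD beside the points. The groups are far apart for Aqp1 and clearly apart for Gja1, narrowly apart for Gja3 and Aqp5, and overlap for Mip, Gje1 and Aqp11.

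The sequences just upstream of the transcription start are shown for both genes that fell and for the 2 most abundant of the 7, as the reference promoters of an epithelial and a fibre pair. They are the 250 bases before the annotated start, from RefSeq on GRCm38.p6, matched by symbol, which gave an entry for 6 of the 7 genes. Gja3 has a pair of annotated starts, and the upstream one of these is shown. Gja1 lies on the plus strand at chr10:56377050-56377299, Aqp1 on the plus strand at chr6:55336049-55336298, Mip on the plus strand at chr10:128225560-128225809 and Gja3 on the minus strand at chr14:57058031-57058280. Capitals mark every match, on either strand, to 1 of 6 searched motifs.
Gja1: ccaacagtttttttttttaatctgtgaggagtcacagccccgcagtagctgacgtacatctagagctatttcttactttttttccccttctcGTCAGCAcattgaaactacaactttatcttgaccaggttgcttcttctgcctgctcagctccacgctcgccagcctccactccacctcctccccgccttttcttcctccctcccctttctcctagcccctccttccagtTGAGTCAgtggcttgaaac
Aqp1: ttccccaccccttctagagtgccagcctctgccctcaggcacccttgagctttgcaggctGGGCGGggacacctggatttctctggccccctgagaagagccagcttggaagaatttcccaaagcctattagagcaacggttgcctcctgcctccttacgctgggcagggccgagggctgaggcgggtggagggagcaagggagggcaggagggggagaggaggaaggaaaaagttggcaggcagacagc
Mip: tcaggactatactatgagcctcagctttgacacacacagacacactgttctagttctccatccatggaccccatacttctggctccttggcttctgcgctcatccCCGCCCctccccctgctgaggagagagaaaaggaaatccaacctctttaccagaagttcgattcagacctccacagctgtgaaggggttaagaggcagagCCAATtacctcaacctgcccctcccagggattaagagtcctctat
Gja3: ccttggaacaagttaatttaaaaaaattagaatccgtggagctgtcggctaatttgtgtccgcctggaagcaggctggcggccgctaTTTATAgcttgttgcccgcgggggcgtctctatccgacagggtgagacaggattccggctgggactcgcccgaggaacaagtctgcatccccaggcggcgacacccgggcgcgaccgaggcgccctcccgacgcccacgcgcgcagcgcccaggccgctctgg
The Gja1 sequence held an AP-1 site (TGANTCA) whose first base lies 19 bases before the start, and a Maf response element half-site (TGCTGAC) at 158 bases. These motifs occur in 6.75% and 3.81% of 32851 promoter windows of the same length. Aqp1 held a GC box (GGGCGG) at 190 bases, a motif of 32.7% of windows. Mip held a GC box at 145 bases and a CCAAT box (CCAAT, 33.8% of windows) at 45 bases, and Gja3 a TATA box (TATAAA, 12.4% of windows) at 163 bases. The window before the other annotated Gja3 start held 0 matches to TATAAA. All of these are letter matches, and their use was not tested. The E-box CACGTG (6.02% of windows) was in none of the 4 printed sequences. CpG dinucleotides numbered 6 in Gja1, 5 in Aqp1 and 3 in Mip, against 26 in Gja3 and a median of 6 over all windows. Gja1 and Aqp1 shared none of the 6 motifs with each other in this window, and no printed match overlapped another.

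Mip (ENSMUSG00000025389, chromosome 10) had the highest level of the 7, at 11.9 to 12.7 times that of Gja3 per kb of exon length in the knockout and 11.3 to 12.4 times in wild type. It had 4094, 3835 and 3842 CPM in the knockout libraries, against 3990, 4419 and 4122 CPM in the wild-type libraries. The groups overlapped, and knockout replicate 1 lay above wild-type replicate 1. The means were 3924 ± 148 CPM in the knockout and 4177 ± 220 CPM in wild type (SD, n = 3 each), with a log2 fold change of -0.09 (interval -0.20 to 0.02, edgeR adjusted p = 0.41). Intervals here are approximate, from the log2 fold change and its SE under a normal distribution. With counts scaled by library size alone the sign turned, to a log2 fold change of 0.02. Exons of Mip overlap those of Gm26847, a long noncoding RNA gene on the opposite strand in GENCODE M21 that had no row under that name in the count table. Whether reads were counted by strand is not stated in the labels.

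Gja3 (ENSMUSG00000048582, chromosome 14) was measured at 445, 417 and 444 CPM in the knockout libraries, against 488, 499 and 461 CPM in the wild-type libraries. Every knockout library lay below every wild-type library, by a margin smaller than the spread within either group. The means were 435 ± 16.3 CPM in the knockout and 483 ± 19.5 CPM in wild type, and the log2 fold change of -0.15 (SE 0.06, interval -0.26 to -0.04) did not pass (edgeR adjusted p = 0.11, unadjusted p = 0.014). Its adjusted p stayed above the threshold in all 17 alternative settings, from 0.055 to 0.66 in edgeR, DESeq2 and limma fits. With library size alone the log2 fold change was -0.04.

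Gje1 (ENSMUSG00000019867, chromosome 10) was a sparse transcript, with 58, 55 and 58 counts in the knockout libraries and 67, 64 and 59 in the wild-type libraries. Its level was 9.91 ± 1.12 CPM in the knockout and 9.73 ± 0.32 CPM in wild type (SD, n = 3 each). The groups overlapped and the log2 fold change was 0.02 (interval -0.31 to 0.35, edgeR adjusted p = 0.97), so the test made no call.

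Gja1 (ENSMUSG00000050953, chromosome 10) had 103, 99.3 and 106 CPM in the knockout libraries, against 140, 130 and 140 CPM in the wild-type libraries. The highest knockout library lay well below the lowest wild-type library. The means were 103 ± 3.24 CPM in the knockout and 137 ± 5.62 CPM in wild type, a log2 fold change of -0.41 (SE 0.06, edgeR adjusted p = 1.43e-04). By unadjusted p it ranked 169 among the tested genes. It was called lower in all 17 alternative settings, with log2 fold changes between -0.44 and -0.30, and was at -0.42 in the 4 libraries of male pattern alone (edgeR adjusted p = 0.0010). Gja1 lies on the chromosome of Cd24a, as do Mip and Gje1. Of the 564 tested genes of chromosome 10, 4.96% were called lower and 7.27% in either direction, close to the shares over all genes. Genes near Cd24a were not examined apart, and a strain difference in that region was not tested.

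Aqp1 (ENSMUSG00000004655, chromosome 6) had 72, 72 and 47 counts in the knockout libraries, against 173, 203 and 210 in the wild-type libraries. After scaling this was 12.95, 11.3 and 8.64 CPM in the knockout libraries, against 24.6, 32.0 and 34.0 CPM in the wild-type libraries. The highest knockout library was far below the lowest wild-type library. The means were 10.96 ± 2.17 CPM in the knockout and 30.2 ± 4.92 CPM in wild type, a log2 fold change of -1.45 (SE 0.15, edgeR adjusted p = 1.37e-06). It ranked 47 by unadjusted p and was called lower in all 17 alternative settings, from -1.59 to -1.23, the weakest being in the libraries of male pattern alone (edgeR adjusted p = 3.10e-05).

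**Figure D2:**
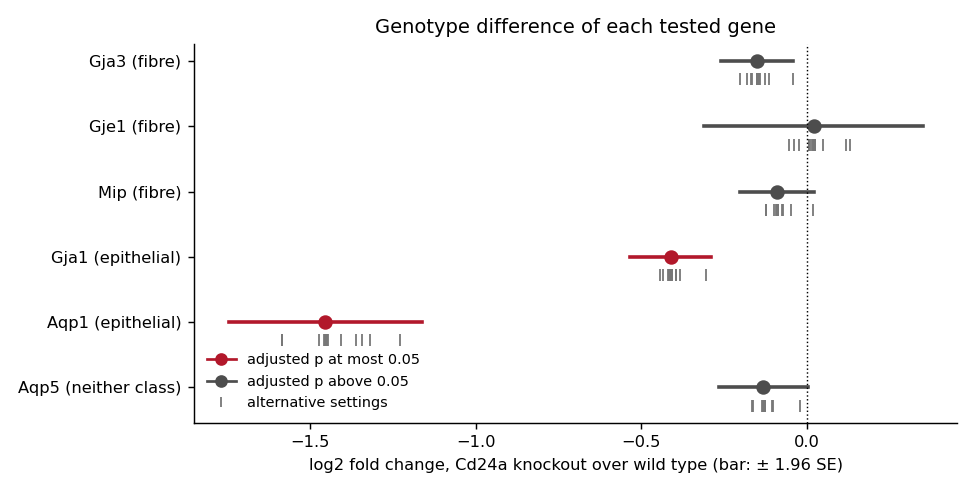
Log2 fold change (Cd24a knockout over wild type) of the 6 tested genes with bars for the approximate interval from the SE, and below each the values under 17 alternative settings (ticks). Aqp1 at -1.45 and Gja1 at -0.41 stay left of 0 in every setting, while Mip and Gje1 have ticks on both sides of it.

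Aqp5 (ENSMUSG00000044217, chromosome 15) had 78.8, 75.0 and 72.1 CPM in the knockout libraries, against 85.3, 83.0 and 78.9 CPM in the wild-type libraries. The groups nearly met, at 78.8 CPM in knockout replicate 1 and 78.9 CPM in wild-type replicate 3. The log2 fold change of -0.13 (interval -0.27 to 0.0035, edgeR adjusted p = 0.30) did not pass. Aqp11 (ENSMUSG00000042797, chromosome 7) was barely detected, with 8, 9 and 9 counts in the knockout libraries and 7, 10 and 8 in the wild-type libraries. It fell under the low-count filter, and its CPM did not differ beyond the spread (1.501 ± 0.13 in the knockout and 1.29 ± 0.29 in wild type, two-sided exact permutation p = 0.40, with 0.10 the smallest possible). Of the 6 tested genes, 4 had no overlap between the groups and all 4 were lower in the knockout, where 12.4% of all tested genes had that pattern and 24.4% had no overlap in either direction.

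The authors' deposited table compares the same libraries and is no independent support. It also separated Aqp1 and Gja1 from the rest. It gave signed folds, negative where the knockout was lower, of -2.74 for Aqp1 (q = 7.27e-19) and -1.33 for Gja1 (q = 1.51e-05). In the authors' deposited table Gja3, Aqp5 and Mip had -1.11, -1.09 and -1.06 and Gje1 1.01, with q-values of 0.24 or more.

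Levels of different genes were compared per kilobase of exon length, which returned the group means of FPKM in the authors' deposited table. In CPM per kb, Mip was at 1830 ± 69.0 in the knockout and 1948 ± 103 in wild type. Gja3 was at 147 ± 5.50 in the knockout and 163 ± 6.59 in wild type, and Aqp5 at 29.0 ± 1.29 in the knockout and 31.7 ± 1.247 in wild type. Gja1 was at 10.02 ± 0.32 in the knockout and 13.3 ± 0.55 in wild type, Aqp1 at 4.17 ± 0.83 and 11.5 ± 1.87, Gje1 at 6.69 ± 0.76 and 6.57 ± 0.22, and Aqp11 at 0.16 ± 0.01 and 0.14 ± 0.03, in the same order of groups (SD, n = 3 each). In every library Mip exceeded Gja3, Gja3 exceeded Aqp5 and Aqp5 exceeded Gja1.

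The order changed between the genotypes at 1 place. Aqp1 was below Gje1 in the knockout, at 3.29 to 4.93 CPM per kb for Aqp1 and 5.82 to 7.21 for Gje1, whereas in wild type Aqp1 was above Gje1, at 9.38 to 12.9 for Aqp1 and 6.45 to 6.83 for Gje1. In wild type Aqp1 and Gja1 were neighbours whose ranges overlapped, and in the knockout each Gja1 value was at least 2.04 times the Aqp1 value of the same library. Within the aquaporins, Mip made up 97.9% ± 0.08 of the summed level per kb in the knockout and 97.5% ± 0.09 in wild type, and Aqp1 0.22% ± 0.04 and 0.57% ± 0.08 in the same order.

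**Figure D3:**
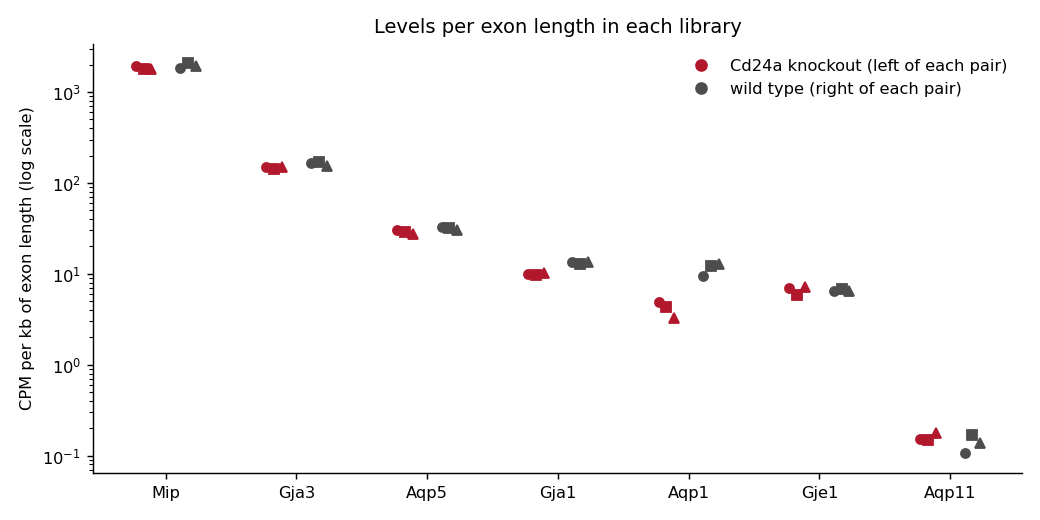
Level per kb of exon length (log axis) of each gene in the Cd24a knockout libraries (red, left of each pair) and the wild-type libraries (grey, right), ordered by the wild-type mean. Mip, at 1830 in the knockout and 1948 in wild type, stands apart from the rest, and Aqp1 is above Gje1 in wild type and below it in the knockout.

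Epithelial and fibre genes were then set against each other within each library, which removes the scaling between libraries. Reads of Gja1 were 23.2%, 23.8% and 23.8% of those of Gja3 in the knockout libraries, against 28.6%, 26.1% and 30.4% in the wild-type libraries. The 3 knockout values were nearly equal and all lay below the wild-type values. The mean log2 ratio was -2.08 ± 0.02 in the knockout and -1.82 ± 0.11 in wild type, a difference of -0.26 (two-sided exact permutation p = 0.10, also 0.10 adjusted over both ratios). With 20 arrangements of 3 against 3 libraries, 0.10 is the smallest p possible.

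Reads of Aqp1 were 0.32%, 0.29% and 0.23% of those of Mip in the knockout libraries, against 0.62%, 0.73% and 0.82% in the wild-type libraries. The groups did not overlap, and the mean log2 ratio was -8.50 ± 0.26 in the knockout and -7.12 ± 0.21 in wild type. The difference was -1.38 (two-sided exact permutation p = 0.10, the smallest possible, also 0.10 adjusted over both ratios). Among the fibre genes, Gja3 per kb was 7.86% to 8.37% of Mip in the knockout and 8.09% to 8.86% in wild type, and the groups overlapped. Gje1 per kb was 4.141% to 4.81% of Gja3 in the knockout and 3.91% to 4.145% in wild type, so these groups barely overlapped, with the knockout higher on the whole. Neither fibre ratio was tested.

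**Figure D4:**
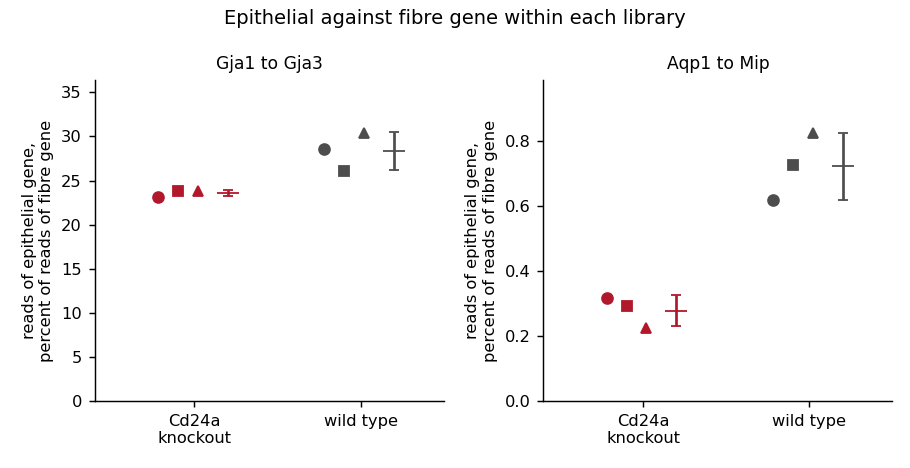
Reads of Gja1 as a percent of those of Gja3 (left) and of Aqp1 as a percent of those of Mip (right) in each Cd24a knockout (red) and wild-type (grey) library, with mean and SD. Knockout libraries lie between 23.2% and 23.8% on the left and between 0.23% and 0.32% on the right, below all wild-type libraries.

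Markers of other tissues were examined because Aqp1 is also made in cornea, ciliary epithelium, vessels and red blood cells. No list of ciliary epithelium markers was used, so that source was not examined. The 9 pigment epithelium markers summed to 25.1 to 38.6 CPM in the knockout and 49.99 to 72.6 CPM in wild type, with 4 of 6 tested genes called lower, among them Rpe65, the retinoid isomerase (log2 -2.51), and Rgr, a retinal opsin (log2 -1.46). Over all tested genes 4.48% were called lower. Within wild type Aqp1 and the pigment epithelium sum were both lowest in replicate 1 and highest in replicate 3. In the knockout Aqp1 was lowest in replicate 3 and the sum was highest there. The order of 3 libraries per group cannot show a link, and whether Aqp1 and the sum are linked was not tested. Of the 6 cornea markers Krt12 and Kera, which define corneal epithelium and stroma, were at 0 in every library, and the sum of 56.9 to 75.4 CPM in the knockout against 83.9 to 94.8 CPM in wild type was nearly all Aldh3a1, a corneal aldehyde dehydrogenase (log2 -0.46).

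Red blood cell markers went the other way. Their 5 genes summed to 1.097 to 6.66 CPM in the knockout and 0 to 0.28 CPM in wild type. The haemoglobin gene Hbb-bs had 23, 4 and 5 counts in the knockout libraries, most of them in replicate 1, and 0 in each wild-type library. The 5 vessel markers summed to 1.47 to 4.39 CPM in the knockout and 1.58 to 3.28 CPM in wild type, with Emcn, an endothelial sialomucin, at 0 in every library. The 6 photoreceptor markers summed to 148 to 263 CPM in the knockout and 160 to 399 CPM in wild type and overlapped, and Gnat1, rod transducin, was the 1 called lower (log2 -0.82), a call lost in 8 of 17 alternatives. Iris muscle and leukocyte markers stayed under 2.6 CPM in every library. The part of these tissues in the difference of Aqp1 or Gja1 was not tested.

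**Figure D5:**
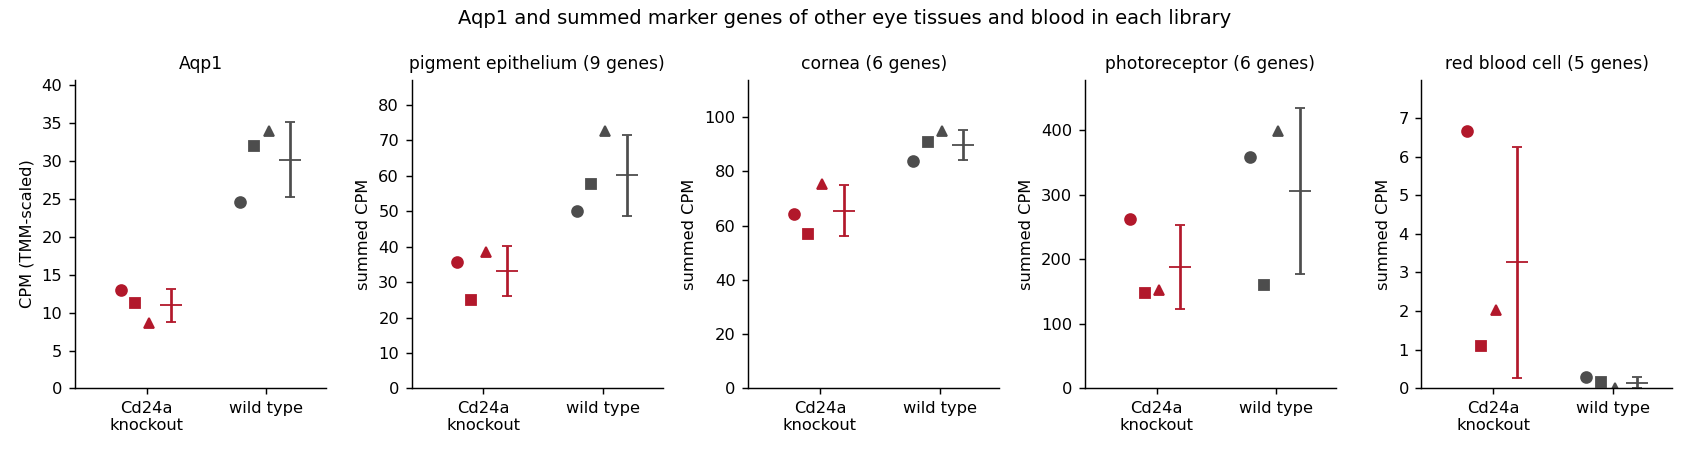
Aqp1 (left) and the summed CPM of marker genes of pigment epithelium, cornea, photoreceptors and red blood cells in each Cd24a knockout (red) and wild-type (grey) library, with mean and SD. Aqp1, pigment epithelium and cornea sums are lower in every knockout library, photoreceptor sums overlap, and red blood cell sums are higher in the knockout. The cornea sum is nearly all Aldh3a1, with Krt12 and Kera at 0 in every library.

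The lens markers give the frame for both classes. Of 8 epithelial markers 3 were called lower and 0 higher, including Npnt, the matrix protein nephronectin (log2 -0.48), and Igfbp7, a growth factor binding protein (log2 -0.34), with a median of -0.21. Of 13 fibre markers tested 8 were called lower and 0 higher, including Birc7, an apoptosis inhibitor (log2 -0.97), and Grifin, a galectin-related lens protein (log2 -0.50), with a median of -0.30. All tested genes had a median of 0.004, and 4.48% of them were called lower and 3.02% higher. Gja1 at -0.41 lay beyond the epithelial median, and Mip at -0.09, Gja3 at -0.15 and Gje1 at 0.02 lay closer to 0 than the fibre median. These marker lists were chosen with earlier results of the same libraries known.

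Of 23 connexin and pannexin genes 8 were at 0 in every library and 6 were tested, of which Gja1 was the 1 call, and of 12 aquaporins 4 were at 0 and 4 were tested, of which Aqp1 was the 1 call. Of all tested genes 4.48% were called lower and 3.02% higher. With library size alone the connexin and pannexin list had 1 call lower and 1 higher, and the aquaporin list 1 lower and 0 higher. Aqp4, a water channel of glia and other tissues, had 199, 258 and 192 counts in the knockout libraries and 294, 264 and 297 in the wild-type libraries, and its log2 fold change of -0.23 (interval -0.41 to -0.05) did not pass (edgeR adjusted p = 0.14). Gjc1, a connexin of vascular and cardiac conduction cells, was at 2.35 ± 1.02 CPM in the knockout and 3.21 ± 0.42 CPM in wild type (log2 -0.47, edgeR adjusted p = 0.51). Panx2, a pannexin, was at 1.82 ± 0.82 CPM in the knockout and 2.54 ± 0.39 CPM in wild type (log2 -0.47, edgeR adjusted p = 0.57).

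Transcripts of proteins that bind or regulate these channels gave few calls, and of these only that of Bfsp2 held in every alternative. Of 17 tested genes on a list of 21 partners, 2 were called lower and 1 higher, beside 4.48% lower and 3.02% higher over all genes. Their median log2 fold change was -0.02. With library size alone 1 was lower and 4 higher around a median of 0.09, beside 0.11 over all genes. Bfsp2, a beaded filament protein of the fibre cytoskeleton, was at 5173 ± 251 CPM in the knockout and 6244 ± 115 CPM in wild type (log2 -0.27, edgeR adjusted p = 0.0028) and stayed called in all 17 alternatives. Bfsp1, the other beaded filament protein, which binds the tail of the Mip protein, had log2 -0.10 (edgeR adjusted p = 0.42). Calm2, which encodes calmodulin, a calcium sensor that gates connexins and Mip, was called at -0.20 but lost the call in 13 of 17 alternatives, and Calm3, which also encodes calmodulin, had log2 -0.04 (edgeR adjusted p = 0.74). Dbn1, the actin-binding protein drebrin that stabilises Gja1 junctions, was called higher at 0.27 and lost the call in 7 alternatives.

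A list of 14 ion transporters and channels covers the circulation of solutes and water through the lens. Of its 13 tested genes 4 were called lower and 1 higher, beside 4.48% lower and 3.02% higher over all genes, with a median log2 fold change of -0.18, and with library size alone 2 were called lower and 1 higher around a median of -0.07. Slc12a2, the sodium-potassium-chloride cotransporter, was at 68.3 ± 2.19 CPM in the knockout and 90.8 ± 7.42 CPM in wild type (log2 -0.41, edgeR adjusted p = 9.05e-04), and Atp1b1, a sodium pump subunit, at 39.8 ± 3.51 CPM in the knockout and 54.2 ± 2.79 CPM in wild type (log2 -0.45, edgeR adjusted p = 0.0018). Both stayed called in all 17 alternatives. Atp1b3, another sodium pump subunit, was called at -0.30 and lost the call in 2 alternatives, without knockout replicate 1 (edgeR adjusted p = 0.051) and with library size alone (0.070). Trpv4, a mechanosensitive cation channel that opens connexin hemichannels in the lens, was called at -0.75 and Slc4a4, a sodium-bicarbonate cotransporter, at 0.32, and these calls were lost in 7 and 6 of 17 alternatives, both in DESeq2 and in the libraries of male pattern.

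The genes whose log2 CPM followed each gene most closely over the 6 libraries were ranked by Pearson correlation among 6489 other tested genes with at least 10 CPM. For Aqp1 they were Ttc27, Pex5l and Ankrd24, all called lower, with log2 fold changes of -1.11, -0.41 and -0.85. For Gja1 they were Ing2, Eif5 and Snhg6, all called lower, at -0.51, -0.44 and -0.93. For Gja3 they were Pde10a, Ints3 and the crystallin gene Cryba1, all called lower, at -0.35, -0.25 and -0.22. For Mip they were Tsn, Nudt9 and Man2b1, none of them called, at -0.10, -0.12 and -0.34. The lowest of these correlations was 0.977, for Man2b1 with Mip. A correlation of at least 0.95 was reached by 102 genes for Aqp1, 103 for Gja1, 62 for Gja3 and 12 for Mip, and all share the same 6 libraries and their genotype difference.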

How the data were processed

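Lens RNA was ribodepleted, made into stranded low-input libraries and read single-end on 4 lanes per library, per the labels' protocols. HISAT2, HTSeq, edgeR and GRCm39 are named in the submitters' processing notes without roles. The deposited values are unnormalized counts of reads on Ensembl genes, with a length and a GC fraction, and, per the file headers, a comparison with signed folds (a score never between -1 and 1), edgeR p-values, Storey q-values and mean FPKM per group. No sample column was unmapped.

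From the counts, genotype was tested with edgeR 4.0.16 (limma 3.58.1, R 4.3.3), by the quasi-likelihood test on TMM-scaled counts after filterByExpr, two-sided, with Benjamini-Hochberg adjustment over 11474 genes. The SE of a fold change is its size over the square root of F. CPM are TMM-scaled. Ratios used exact permutation. The series text calls the samples biological replicates, and no pair agreed within sampling noise (lowest chi-square 2.76 per degree of freedom). On simulated counts the fit called 2 of 48 genes changed 1.25-fold, 22 of 47 changed 1.5-fold, 41 of 48 changed 2-fold and 48 of 50 changed 4-fold, and 12 of 11063 unchanged genes. The changed genes were drawn at random from all tested genes and were fewer than the 861 called in the data. These shares therefore do not give the power for the genes described here.

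The members and lists were chosen with earlier results of these data known. Named genes were the members, family genes with at least 10 counts in all, up to 6 genes per partner or circulation list and 2 per marker list (called ones first, then the most abundant), and the 3 most similar genes of 4 members. Some genes these rules name are not reported here. A symbol on several identifiers was taken at the one with most counts. Alternatives were each library left out, the libraries of male pattern, other filters and scalings, a block for replicate number, edgeR's exact test, limma-voom and DESeq2 1.42.0.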

Additional observations from a re-analysis of the deposited data

How the results depend on the processing

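The calls of Gja1 and Aqp1 held in each of 17 alternatives, and Gja3, Gje1, Mip and Aqp5 were called in none of them. Scaling by library size alone called 1344 genes in place of 861, with a median log2 change over all genes of 0.11 in place of 0.004, and turned Mip to 0.020. Leaving out 1 library gave 562 (without knockout replicate 1) to 782 called genes, and log2 fold changes of -0.037 to 0.12 for Gje1, which was below 0 without knockout replicate 1 (-0.022) or 3 (-0.037). In the libraries of male pattern Gje1 was at -0.053 and the difference of the Aqp1 to Mip log2 ratio was -1.13. Leaving out 1 library kept that difference between -1.49 and -1.23 and that of Gja1 to Gja3 between -0.32 and -0.21. The cause of these shifts was not tested. Same-numbered samples did not deviate together (correlations of 0.054, -0.035 and 0.035), so the numbers were not taken as pairs. With a replicate block 781 genes were called, Gja1 had -0.41 and Aqp1 -1.45, both called, and the exact sign-flip p of each ratio was 0.25, the smallest possible. At 55 to 67 counts per library for Gje1 and 7 to 10 for Aqp11, depth limits what could be seen.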

Other observations

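Several family genes had counts too low to be tested. The wild-type libraries held more counts in all, so these raw counts lean towards wild type. Among the tested genes 24.4% had no overlap between the groups in CPM, and no such share was computed below the filter. Gjb6, a connexin of glia and inner ear, had 2, 7 and 6 counts in the knockout libraries and 8, 16 and 13 in the wild-type libraries, and the groups did not overlap in CPM. Aqp3, a water and glycerol channel of surface epithelia, had 0 counts in each knockout library and 8, 6 and 0 in the wild-type libraries. Gjd2, a neuronal connexin, had 1, 2 and 0 counts in the knockout libraries and 3 in each wild-type library. Gja5, a connexin of vessels and heart, had 0, 1 and 1 in the knockout libraries and 4, 2 and 2 in the wild-type libraries. Gjd2 and Gja5 also had no overlap between the groups in CPM, at these few counts. In the other direction Panx1, a pannexin channel gene named after its values were seen, had 2, 4 and 2 counts in the knockout libraries and 0, 0 and 1 in the wild-type libraries, and the groups did not overlap in CPM. Without molecular identifiers, such counts are reads and not molecules.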
